A study of Mus musculus with 6 samples.

Results

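The genes described here make up the type 1 programme of lymphocytes: the cytokine gene Ifng, the IL-12 receptor genes Il12rb1 and Il12rb2, the signal transducer gene Stat4, the transcription factor genes Tbx21, Eomes and Runx3, and the receptor gene Ncr1. They were chosen by symbol from what is known of ILC1s, natural killer (NK) cells and T helper 1 cells, with earlier results of these data known. All 8 were found, each with 1 probe set, among the 23185 named genes of the series. The cells were a group 2 innate lymphoid cell (ILC2) line from C57BL/6J mice, grown with 10 ng/ml of the cytokines IL-2 and IL-33. They carried a lentiviral CRISPR construct with GFP and a guide RNA against Myc (labelled Myc knock out, 3 arrays) or a non-target control guide (3 arrays), and were sorted as GFP+ cells on day 6 after transduction. Both groups thus share the line, the cytokines, the virus and the sort. Nothing in the labels ties the replicates to separate cultures or to separate infections, and the p-values therefore cover the spread among these samples alone, which may be technical.

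ILC2s, ILC1s and ILC3s are lymphocytes without rearranged antigen receptors that differ in the cytokines they secrete. In ILC1s and NK cells, T-bet and Eomes, related T-box factors encoded by Tbx21 and Eomes, support transcription of Ifng, whose product, interferon gamma (IFN-γ), activates macrophages and raises antigen presentation. IL-12 binds a receptor made of the products of Il12rb1 and Il12rb2 and signals through JAK2, TYK2 and STAT4. ILC2s exposed to IL-12 can gain T-bet and IFN-γ, while GATA3 and IL-33 favour type 2 cytokines, so the comparison asks whether type 1 genes differ between the Myc-targeted and the control cells of a line held under type 2 conditions.

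Promoter sequences of members are shown because their motifs belong to the factors of the programme itself, STAT and RUNX proteins. RefSeq promoter entries (build GRCm38.p6, 250 bases before to 50 after a gene's start) matched 7 of the 8 members with 10 starts. The following have the STAT motif TTCNNNGAA in capitals in the first pair and the RUNX motif TGTGGT, on either strand, in the second pair; Ifng lies at chr10:118440796-118441095 (+ strand), Il12rb2 at chr6:67376139-67376438 (− strand), the upstream start of Runx3 at chr4:135120395-135120694 (+ strand) and the first start of Ncr1 at chr7:4337465-4337764 (+ strand).
Ifng: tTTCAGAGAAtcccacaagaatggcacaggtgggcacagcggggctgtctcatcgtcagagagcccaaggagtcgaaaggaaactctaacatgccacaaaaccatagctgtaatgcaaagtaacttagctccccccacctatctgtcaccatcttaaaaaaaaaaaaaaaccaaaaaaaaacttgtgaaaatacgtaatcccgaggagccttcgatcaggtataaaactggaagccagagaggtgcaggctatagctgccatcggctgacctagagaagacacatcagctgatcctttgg
Il12rb2: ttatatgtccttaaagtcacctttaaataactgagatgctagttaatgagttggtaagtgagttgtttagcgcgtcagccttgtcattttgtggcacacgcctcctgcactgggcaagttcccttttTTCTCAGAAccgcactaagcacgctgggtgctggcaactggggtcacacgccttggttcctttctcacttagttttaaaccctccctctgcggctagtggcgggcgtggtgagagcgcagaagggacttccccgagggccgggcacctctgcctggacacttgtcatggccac
Runx3: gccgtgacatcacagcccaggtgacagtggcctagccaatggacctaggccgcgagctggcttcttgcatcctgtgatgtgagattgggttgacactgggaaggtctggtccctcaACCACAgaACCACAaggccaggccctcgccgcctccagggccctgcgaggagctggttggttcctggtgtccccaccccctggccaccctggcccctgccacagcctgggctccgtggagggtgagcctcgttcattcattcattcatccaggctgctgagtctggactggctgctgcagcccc
Ncr1: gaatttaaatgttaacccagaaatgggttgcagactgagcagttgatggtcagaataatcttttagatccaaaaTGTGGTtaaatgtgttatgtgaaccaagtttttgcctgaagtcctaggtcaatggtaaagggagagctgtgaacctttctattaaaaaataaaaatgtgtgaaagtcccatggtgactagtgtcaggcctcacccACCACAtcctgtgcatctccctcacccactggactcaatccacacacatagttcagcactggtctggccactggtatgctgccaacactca
The STAT motif was found in 2 of these 7 members (Ifng and Il12rb2) and in 8.30% of all 32851 promoter entries. The RUNX motif was found in 2 of the 7 (Runx3 and Ncr1), in neighbouring copies in Runx3, and in 16.76% of all entries. The E-box CACGTG, which MYC and MAX bind, and the T-box motif AGGTGTGA were matched in 0 of the 7 members, against 7.15% and 1.28% of all entries. A member was counted if any of its starts had a match, while the percentages are per promoter entry, so the 2 are not like for like. Both strands were read, and no matches of different motifs overlapped in these members. A match describes letters in this window and shows no binding.

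Of the 8 members, 4 were dim in this line in both groups, 3 were clearly above the dim range and Tbx21 lay at its edge. Probe sets of 1354 olfactory and vomeronasal receptor genes, families that lymphoid cells are not known to express, served to show where a dim value lies. Their 95th percentile was 3.19 to 3.42 log2 units on the arrays labelled Myc knockout and 3.04 to 3.15 on the control arrays. Stat4, Il12rb1 and Runx3 lay above that percentile on all 6 arrays, and Ifng, Il12rb2, Eomes and Ncr1 on 0 of 6. Tbx21 lay above it on 3 of 3 control arrays and on 0 of 3 arrays labelled Myc knockout, where the percentile was itself higher.

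**Figure D1:**
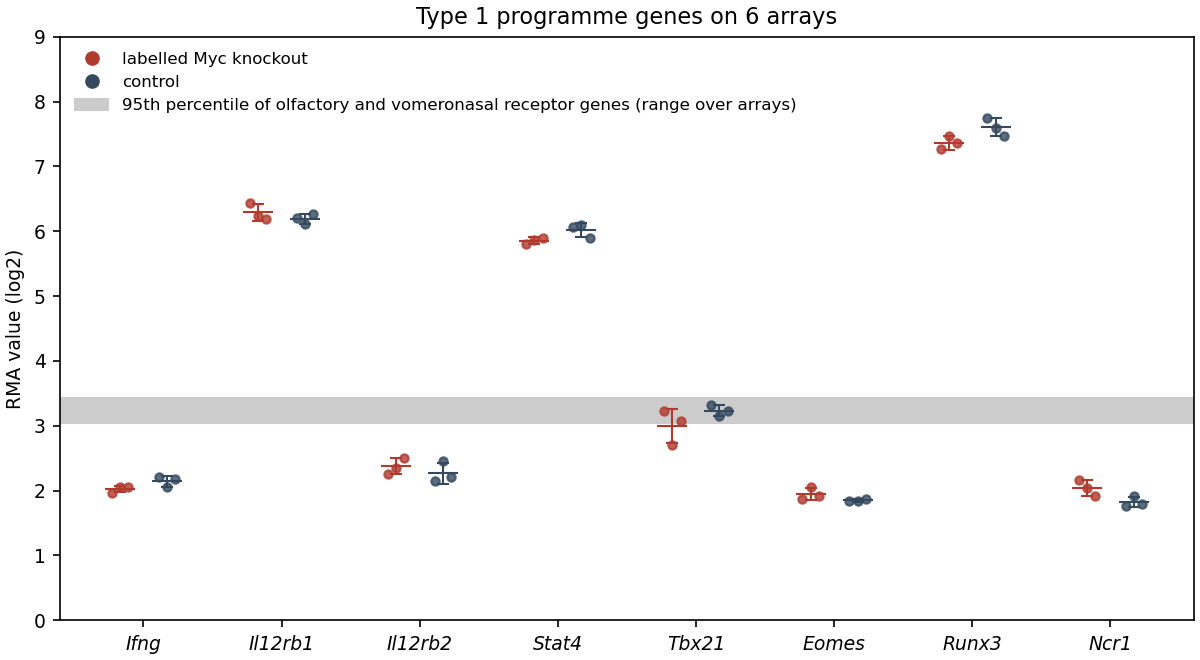
RMA values (log2, vertical axis) of the 8 type 1 programme genes on the 3 arrays labelled Myc knockout (red) and the 3 control arrays (dark blue); bars are the mean ± SD and the grey band is the range over arrays of the 95th percentile of olfactory and vomeronasal receptor genes. Il12rb1, Stat4 and Runx3 stand above the band, Tbx21 lies at it, and the other 4 genes lie below it.

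None of the 8 members passed the test. Limma over all 23185 genes gave adjusted p-values of 0.307 to 0.673 for them, with 0 higher and 0 lower at an adjusted p under 0.05, where 0.453% of all genes were called. Before adjustment, at p under 0.05, 1 member was higher (Ncr1) and 1 lower (Runx3) in the arrays labelled Myc knockout, where 14.9% of all genes passed. The groups overlapped or touched for all 8, while 19.8% of all genes had groups that did not overlap (9.25% with the arrays labelled Myc knockout higher and 10.6% with them lower). Of the members 4 had positive and 4 negative log2 differences, with a median of −0.014 (−0.051 to −0.018 when any 1 array was left out, with −0.051 without labelled knockout replicate 3), against 0.0077 over all genes. Differences are arrays labelled Myc knockout minus control, ± SE from limma, and group values are means ± SD of log2 values (n = 3 arrays each). In such bulk RNA fewer cells that express a gene and less RNA per cell cannot be told apart.

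**Figure D2:**
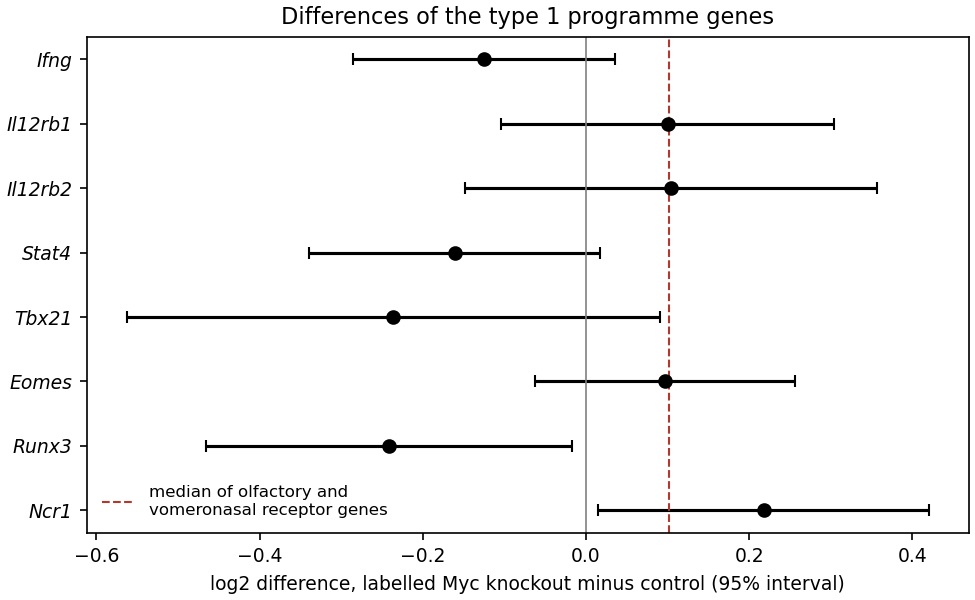
Log2 difference of each member (horizontal axis, arrays labelled Myc knockout minus control), as points with 95% confidence intervals from limma; the dashed line is the median difference of the olfactory and vomeronasal receptor genes, 0.10. The intervals of Runx3 and Ncr1 leave out 0 before adjustment for the number of genes, and those of the other 6 members include it.

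Ifng, the signature cytokine gene of the programme, stayed at the level of the dim probe sets. Its log2 values were 1.96, 2.05 and 2.05 on the arrays labelled Myc knockout and 2.21, 2.05 and 2.18 on the control arrays. The groups overlapped, with a control array at the value of the highest arrays of the other group. The difference was −0.13 ± 0.067 (95% confidence interval −0.29 to 0.035, limma's adjusted p = 0.429). A probe set this close to background gives no measure of how much Ifng mRNA either group held.

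Among the genes that receive IL-12, the receptor subunit gene Il12rb1 and the transducer gene Stat4 were well measured and the second subunit gene Il12rb2 was not. Il12rb1, whose product is shared with the IL-23 receptor, had values of 6.44, 6.24 and 6.19 on the arrays labelled Myc knockout, against 6.20, 6.10 and 6.26 on the control arrays. Replicate 1 of the arrays labelled Myc knockout lay highest and the rest interleaved. The means were 6.29 ± 0.13 and 6.19 ± 0.080, a difference of 0.10 ± 0.085 (95% confidence interval −0.10 to 0.30, limma's adjusted p = 0.612), and without that array it was 0.026.

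Il12rb2, the subunit that binds STAT4 and that T helper 1 cells gain as they differentiate, had values of 2.26, 2.35 and 2.50 on the arrays labelled Myc knockout, against 2.14, 2.45 and 2.21 on the control arrays. These lay among the dim probe sets and overlapped. The difference of 0.10 ± 0.11 (limma's adjusted p = 0.673) matched the median difference of the olfactory and vomeronasal receptor genes, also 0.10. Leaving out 1 array gave 0.038 (without labelled knockout replicate 3) to 0.20 (without control replicate 2).

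Stat4, which carries the IL-12 signal to the nucleus, had values of 5.80, 5.86 and 5.90 on the arrays labelled Myc knockout and 6.06, 6.10 and 5.89 on the control arrays. Control replicate 3 lay just below the highest array labelled Myc knockout, and the other controls lay above all of that group. The means of 5.86 ± 0.050 and 6.02 ± 0.11 gave a difference of −0.16 ± 0.075 (95% confidence interval −0.34 to 0.018, limma's adjusted p = 0.374). On the fold scale this interval ran from 1.27-fold lower to 1.01-fold higher.

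Of the T-box factor genes, Tbx21 was near the edge of the dim range and Eomes inside it. Tbx21 had values of 3.22, 2.70 and 3.07 on the arrays labelled Myc knockout, against 3.33, 3.15 and 3.22 on the control arrays. The highest array labelled Myc knockout had the value of control replicate 3 and lay above control replicate 2, and replicate 2 of the arrays labelled Myc knockout lay lowest of all. The SDs were 0.27 and 0.087, and the difference was −0.24 ± 0.14 (95% confidence interval −0.56 to 0.091, limma's adjusted p = 0.463). Without labelled knockout replicate 2 the difference was −0.088 (limma's adjusted p = 0.668), and without replicate 1 of that group it was −0.35.

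Eomes, which marks NK cells more than ILC1s in mice, had values of 1.87, 2.05 and 1.91 on the arrays labelled Myc knockout and 1.84, 1.83 and 1.87 on the control arrays. The lowest array labelled Myc knockout had the value of the highest control. The difference was 0.097 ± 0.067 (95% confidence interval −0.063 to 0.26, limma's adjusted p = 0.534), which is the size of the shift of the olfactory and vomeronasal receptor genes. Without labelled knockout replicate 2 it was 0.043.

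Runx3, a RUNX factor gene active in NK cells, ILC1s, ILC3s and CD8 T cells, had the difference of largest size among the 3 members above the dim range. Its values were 7.26, 7.47 and 7.35 on the arrays labelled Myc knockout, against 7.75, 7.59 and 7.47 on the control arrays. The groups touched: the highest array labelled Myc knockout and the lowest control had the same value. The means of 7.36 ± 0.11 and 7.60 ± 0.14 gave a difference of −0.24 ± 0.094 (95% confidence interval −0.47 to −0.017, unadjusted p = 0.0385 and adjusted p = 0.307 in limma). The interval ran from 1.01-fold to 1.38-fold lower, and leaving out each array gave differences of −0.31 to −0.17.

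Ncr1, which encodes the activating receptor NKp46 of NK cells, ILC1s and some ILC3s, had values of 2.17, 2.04 and 1.92 on the arrays labelled Myc knockout, against 1.76, 1.92 and 1.80 on the control arrays. The lowest array labelled Myc knockout and the highest control again had the same value. The difference was 0.22 ± 0.084 (95% confidence interval 0.015 to 0.42, unadjusted p = 0.0387 and adjusted p = 0.308 in limma), all of it within the range of dim probe sets. Over the olfactory and vomeronasal receptor genes the differences had a median of 0.10, a 5th percentile of −0.15 and a 95th percentile of 0.50, and 75.3% were positive. The part of this shift in the differences of Ncr1, Eomes and Il12rb2 was not tested.

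Checks on the cells bear on these levels. Of 8 ILC2 markers, 7 (Gata3, Rora, Il7r, Il5, Il13, Icos and Il2ra) lay above the receptor gene percentile on all 6 arrays and Il17rb on 0. Of the 5 NK cell markers measured, Prf1 and Gzma lay above it on all arrays, Klrb1c on 1 of 3 arrays labelled Myc knockout and 2 of 3 controls, and Eomes and Ncr1 on 0. The summed linear level of the NK cell markers was 297 to 330 on the arrays labelled Myc knockout and 264 to 297 on the control arrays, mostly from Prf1 and Gzma, and its part in the differences above was not tested. Of the T cell markers, Cd3d, Cd3e, Cd4, Cd8b1 and Cd5 lay above the percentile on 0 arrays, while Cd3g and Cd8a did on all. Mcpt8, a basophil protease gene, Itgam, Cd68 and Il17f did on all arrays too. Of the 3 B cell markers measured, Cd79a and Ms4a1 lay above it on 0 arrays. Pax5 did on 2 of 3 arrays labelled Myc knockout and on 3 of 3 controls. The summed level of the 4 mast cell and basophil markers was 171 to 234 on the arrays labelled Myc knockout and 239 to 281 on the control arrays, mostly from Mcpt8 (162 to 226 and 231 to 273); Cpa3, Fcer1a and Ms4a2 lay above the percentile on 0 arrays and had positive differences. That of the 4 measured myeloid markers was 88.5 to 101 and 120 to 140, mostly from Itgam (58.3 to 71.5 and 90.7 to 108; log2 difference −0.63 ± 0.10, limma's adjusted p = 0.0767). Cd68 overlapped between the groups, and Csf1r and Adgre1 lay above the percentile on 0 arrays. For the 4 measured ILC3 markers the sum was 29.9 to 32.7 on the arrays labelled Myc knockout and 19.5 to 23.5 on the control arrays, mostly from Il17a and Il17f, with Il22 and Il23r above the percentile on 0 arrays. Il17a, a cytokine gene of ILC3s, passed the test (log2 difference 0.95 ± 0.11, limma's adjusted p = 0.0353) and lay above the percentile on 3 arrays labelled Myc knockout and 0 control arrays. That call was lost when any 1 array was left out (limma's adjusted p 0.0901 to 0.174). The part of these markers in the results was not tested. Myc itself, the targeted gene, was 9.55, 9.79 and 9.73 on the arrays labelled Myc knockout and 9.27, 9.33 and 9.39 on the control arrays. It was not lower (difference 0.36 ± 0.080, limma's adjusted p = 0.127; exact two-sided permutation p = 0.1, the smallest that 3 against 3 arrays allow), so every direction here rests on the labels.

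Beyond the members, 96 of 103 further genes of the pathway were measured in 7 lists. Over all of them 3 rose (Il21, Klrk1 and Gbp2) and 0 fell (limma's adjusted p under 0.05, 0.254% and 0.198% of all genes). Before adjustment, 11 were higher and 15 lower at p under 0.05, where 6.97% and 7.91% of all genes were. These 3 calls were each lost when any 1 of the 6 arrays was left out, with limma's adjusted p between 0.119 and 0.174, while the log2 differences kept their sign.

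**Figure D3:**
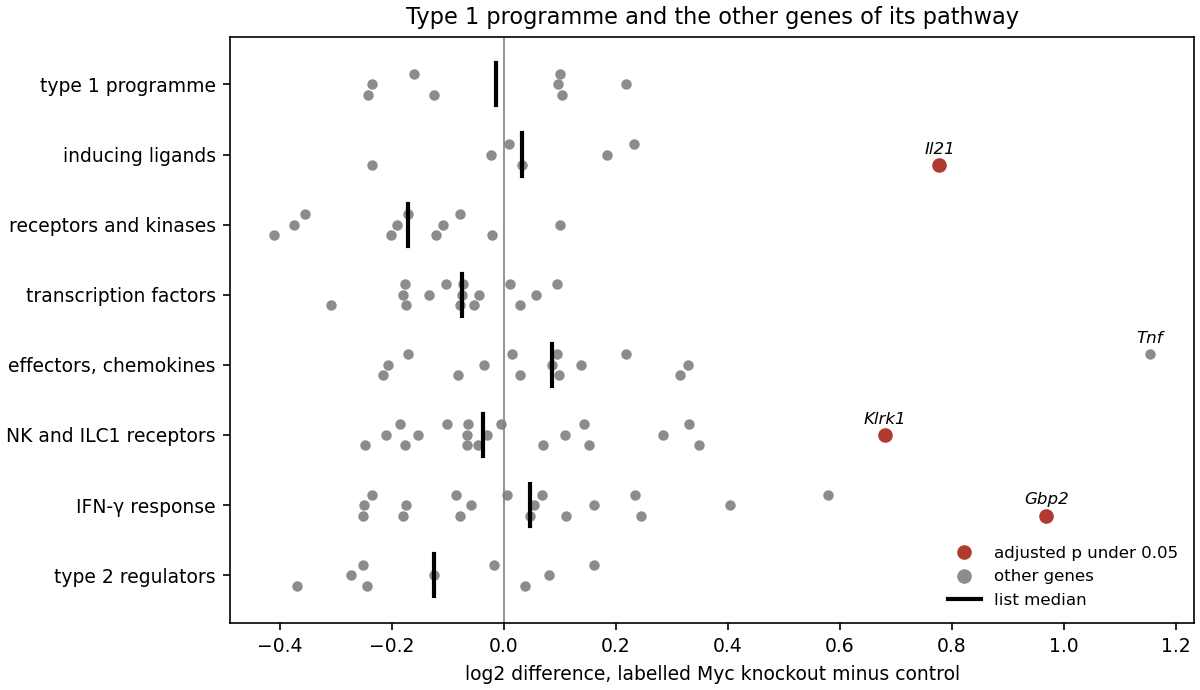
Log2 differences (horizontal axis, arrays labelled Myc knockout minus control) of the members in the top line and of 7 lists of other pathway genes; each point is a gene, red points passed limma's adjusted p under 0.05, and black bars are list medians. Il21, Klrk1 and Gbp2 are the called genes, Tnf had the highest difference without passing, and the receptors and kinases lie mostly left of 0.

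Among the 7 ligand genes of the pathway, Il21, a T cell cytokine gene, rose. Its values were 3.58, 3.80 and 3.71 on the arrays labelled Myc knockout and 2.74, 2.96 and 3.06 on the control arrays. All 3 arrays labelled Myc knockout lay above all controls, and the controls lay below the receptor gene percentile, so the difference of 0.78 ± 0.10 (limma's adjusted p = 0.0419) gives no exact fold. Over the 1354 olfactory and vomeronasal receptor genes the differences had a median of 0.10 and a 95th percentile of 0.50. Of these genes 2 were called higher, where 0.254% of all genes were. The part of this shift in Il21 was not tested. Ebi3, which encodes a subunit shared by IL-27 and IL-35, stood at 5.35 ± 0.059 in the arrays labelled Myc knockout and 5.58 ± 0.025 in the controls (−0.24 ± 0.058, limma's adjusted p = 0.155), and Il15 differed by 0.23 ± 0.13 (0.14 without control replicate 1 and 0.37 without control replicate 2). Il12a and Il12b, the genes of IL-12, lay above the percentile on 0 arrays. The list median was 0.033, with 0.011 without labelled knockout replicate 2, 0.091 without replicate 3 of that group and −0.0035 under cyclic loess scaling.

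Receptor and kinase genes of the pathway had mostly negative differences, and 0 passed the test. Of 11 measured, 10 had negative differences, with a median of −0.17 (−0.20 to −0.13 when any 1 array was left out); 47.8% of all genes were negative, and 58% of the 11593 genes at or above the median level, where all 11 of these lay. Before adjustment, 4 were lower and 0 higher at p under 0.05, where 7.91% and 6.97% of all genes were. The groups did not overlap for 5, all lower (10.6% of all genes). Jak1, a kinase gene of the IL-2 family and interferon receptors, had values of 10.33, 10.38 and 10.44 on the arrays labelled Myc knockout and 10.75, 10.75 and 10.78 on the control arrays. That is a difference of −0.37 ± 0.057 (limma's adjusted p = 0.0647). Il18rap, which encodes the signalling chain of the IL-18 receptor, had values of 7.38, 7.43 and 7.39, against 7.69, 7.87 and 7.87 in the controls (−0.41 ± 0.069, adjusted p = 0.0767). Tyk2 and Jak2, the kinase genes of the IL-12 receptor, differed by −0.20 ± 0.062 and −0.12 ± 0.054, Il15ra by −0.36 ± 0.093, and Ifngr1 and Ifngr2, the receptor genes for IFN-γ, by −0.022 ± 0.077 and −0.17 ± 0.093. Il2rb alone was positive, at 0.10 ± 0.060.

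Other transcription factor genes of ILC1, NK and T helper 1 cells showed 0 calls among 15 measured, with 11 negative and a median of −0.075 (−0.019 without labelled knockout replicate 1). Negative differences were found for 47.8% of all genes and 58% of genes at or above the median level. Nfil3, needed for NK and ILC development, was 8.21 ± 0.061 in the arrays labelled Myc knockout and 8.38 ± 0.025 in the controls (−0.18 ± 0.058, limma's adjusted p = 0.25). Irf8 differed by −0.31 ± 0.10 (limma's adjusted p = 0.258). Id2, which all ILCs express, differed by 0.028 ± 0.072.

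Effector and chemokine genes had 0 calls among 15, with 10 positive, where 12105 of all 23185 genes were, and a median of 0.087. Tnf, an inflammatory cytokine gene of type 1 cells among others, had values of 7.71, 8.23 and 8.24 on the arrays labelled Myc knockout, against 7.07, 6.87 and 6.78 on the control arrays. The groups were well apart, at 2.22-fold (95% confidence interval 1.70 to 2.91), and limma's adjusted p was 0.0518, just above the threshold; it passed under 6 of the alternatives. Gzma, a granzyme gene, differed by 0.33 ± 0.099 (limma's adjusted p = 0.216), whereas the granzyme gene Gzmb, at 11.08 ± 0.072 and 11.07 ± 0.039, differed by 0.014 ± 0.062. Prf1, the perforin gene, differed by 0.098 ± 0.084. Cxcr3, a known T-bet target, lay above the percentile on 0 arrays labelled Myc knockout and on 1 control array. The list median was 0.014 without labelled knockout replicate 1 and 0.017 without control replicate 2.

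Of 20 NK and ILC1 surface receptor genes, Klrk1, which encodes NKG2D, rose. Its values were 3.73, 3.80 and 3.74 on the arrays labelled Myc knockout and 3.18, 2.88 and 3.18 on the control arrays. The groups did not overlap, and the difference was 0.68 ± 0.093 (limma's adjusted p = 0.0473) from control values at the edge of the dim range; with array weights it was not called (limma's adjusted p = 0.0500014). Klrd1, which encodes CD94, differed by 0.35 ± 0.084 (limma's adjusted p = 0.148) at 2.63 ± 0.097 and 2.28 ± 0.11, below the receptor gene percentile. Over the olfactory and vomeronasal receptor genes the differences had a 95th percentile of 0.50, which is above that of Klrd1. Of the 1354 olfactory and vomeronasal receptor genes, 2 were called higher and 0 lower, where 0.254% and 0.198% of all genes were. The part of this shift in the differences of Klrk1 and Klrd1 was not tested. Itga2, the gene of CD49b, differed by −0.25 ± 0.081 (limma's adjusted p = 0.247), and Itga1, the gene of the ILC1 marker CD49a, lay above the percentile on 0 arrays. The list had 8 positive and 12 negative members, where 47.8% of all genes were negative. Its median was −0.038, which turned to 0.014 without control replicate 1 and 0.034 without control replicate 2.

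The genes that respond to IFN-γ were split. Gbp2, a guanylate-binding protein gene of cell-autonomous defence, rose 1.96-fold (95% confidence interval 1.59 to 2.40), with values of 6.42, 6.10 and 6.26 on the arrays labelled Myc knockout, against 5.38, 5.42 and 5.07 on the control arrays (limma's adjusted p = 0.0405). Gbp4 and Gbp5 had differences of 0.58 ± 0.081 and 0.40 ± 0.063 with groups that did not overlap, and adjusted p = 0.0514 and 0.0685 in limma. Igtp and Socs1 differed by 0.25 ± 0.080 and 0.23 ± 0.087. Other members, named after their values were seen, lay the other way: Tap1, a peptide transporter gene of antigen presentation, was 7.72 ± 0.037 in the arrays labelled Myc knockout and 7.97 ± 0.030 in the controls (−0.25 ± 0.054, limma's adjusted p = 0.122). H2-K1, an MHC class I gene, differed by −0.18 ± 0.070, and Irgm2 by −0.24 ± 0.066. In all 1 of 19 rose and 0 fell. Before adjustment, 5 were higher and 3 lower at p under 0.05, where 6.97% and 7.91% of all genes were. The groups did not overlap for 4 genes that were higher and 3 that were lower, Tap1, H2-K1 and Irgm2 (9.25% and 10.6% of all genes). The list median was 0.047, and −0.024 without control replicate 3. Guanylate-binding protein genes have close copies that probe sets can share, so their separate values are uncertain.

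**Figure D4:**
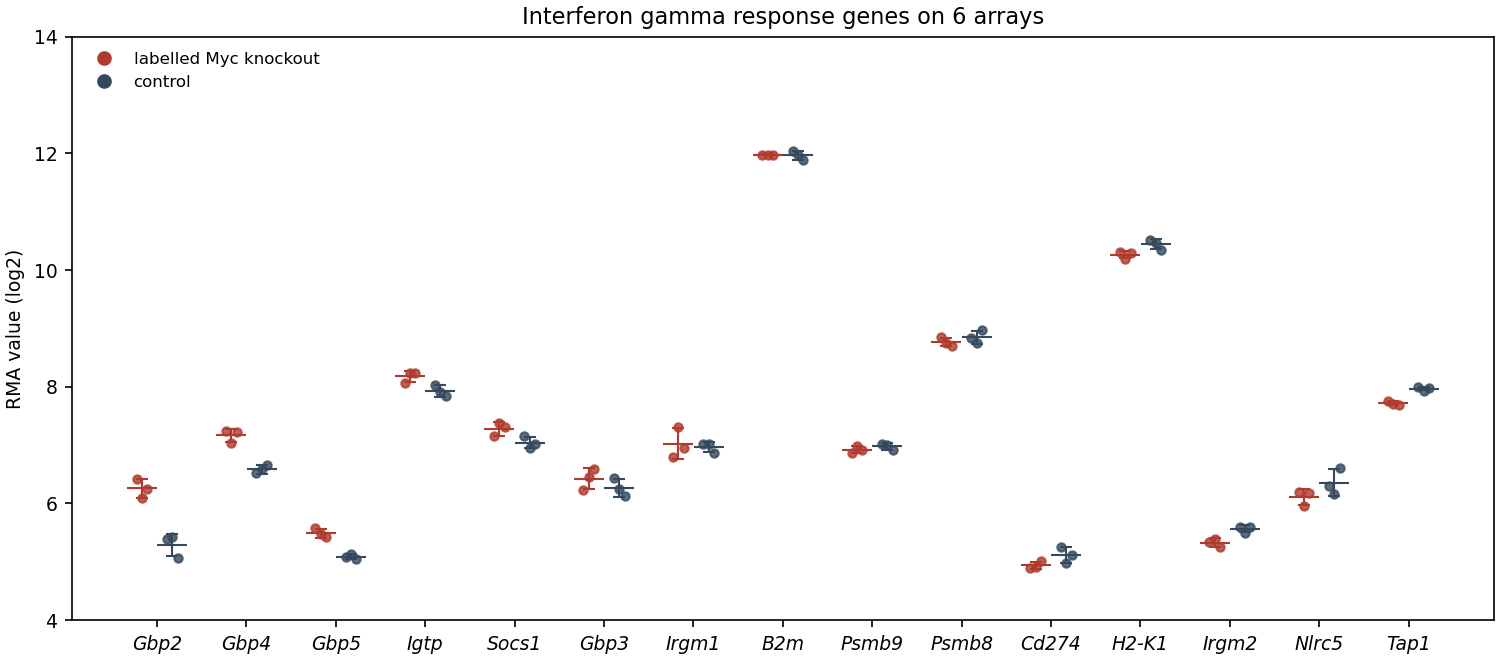
RMA values (log2, vertical axis) of the 15 IFN-γ response genes that lay above the receptor gene percentile on all 6 arrays, ordered by difference, on the arrays labelled Myc knockout (red) and the control arrays (dark blue), with mean ± SD bars. Gbp2, Gbp4 and Gbp5 at the left are higher in the arrays labelled Myc knockout, B2m differed by 0.0063, and Tap1 at the right is lower.

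The promoter of Gbp2 (chr3:142620413-142620712, + strand, RefSeq, GRCm38.p6) is shown because it is the called response gene; the capitals mark the interferon-response type motif, 2 copies of GAAA parted by 2 bases, on the reverse strand, which was added to the search after the values were seen.
Gbp2: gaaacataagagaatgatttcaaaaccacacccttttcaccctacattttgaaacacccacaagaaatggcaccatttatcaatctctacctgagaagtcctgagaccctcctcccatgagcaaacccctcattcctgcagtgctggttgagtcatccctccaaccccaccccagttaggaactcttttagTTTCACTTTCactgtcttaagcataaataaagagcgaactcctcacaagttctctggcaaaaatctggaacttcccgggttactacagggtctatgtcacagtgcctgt
This motif was found in 3.44% of all promoter entries. Counting a match at any start, it was found in 2 of the 7 members with an entry, Stat4 and Eomes, neither of which passed the test. Gbp4 and Gbp5, which did not pass the test either, were also searched. The promoter of Gbp5 held this motif too. For Gbp4 no match was found, and whether it had a promoter entry was not recorded.

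Type 2 regulator and receptor genes, the counterpart of the T-bet programme, showed 0 calls among 9 measured. Of these 6 were negative, where 47.8% of all genes and 58% of genes at or above the median level were. The list median was −0.12 (−0.17 to −0.085 when any 1 array was left out). Gata3, which specifies ILC2s and restrains the type 1 programme, had values of 9.26, 9.35 and 9.34 on the arrays labelled Myc knockout, against 9.64, 9.48 and 9.58 on the control arrays. All 3 lay below all controls (−0.25 ± 0.066, limma's adjusted p = 0.173). Stat6, which carries IL-4 and IL-13 signals, differed by −0.37 ± 0.057 (limma's adjusted p = 0.0665). Of the 3 genes with positive differences, Icos had the largest, 0.16 ± 0.057 (limma's adjusted p = 0.270). The type 2 cytokine genes, held in the ILC2 marker list, had positive differences. Il5 rose, at 9.94, 10.05 and 10.06 on the arrays labelled Myc knockout, against 9.51, 9.57 and 9.49 on the control arrays (0.49 ± 0.061, limma's adjusted p = 0.0386), a call lost when any 1 array was left out (limma's adjusted p 0.0887 to 0.174). Il13 was 11.29 ± 0.048 in the arrays labelled Myc knockout and 11.05 ± 0.17 in the controls (0.23 ± 0.095, limma's adjusted p = 0.325). Its groups were parted by only 0.00093 log2 units. Of all genes, 9.25% had groups that did not overlap with the labelled knockout group higher.

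By Pearson r over the 6 arrays, the genes closest to Ifng among 11711 at or above the array median level were Ifitm5 (r = 0.997), Tbc1d12 (r = 0.996) and Ubash3b (r = 0.995). This is a description of 6 points in 2 groups, over an Ifng range of 0.25 log2 units within the dim probe sets. The highest r values picked from 11711 genes can lie near these by selection alone, so they show no link to Ifng. None of the 3 passed the test, with limma's adjusted p between 0.282 and 0.380.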

How the data were processed

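Total RNA of 6 samples was measured on Affymetrix arrays, 3 per group, with groups read from the titles. The authors' deposited values are log2 intensities summarised by RMA, per the submitters' processing notes, which also list limma 3.14.4. RMA corrects background, gives all arrays 1 intensity distribution and summarises each probe set, so a change shared by all transcripts is lost. The array version and probe set definition were not given in the sources used here, and the number of arrays limits the precision.

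Of 25206 probe sets, 23185 had 1 gene symbol in the platform annotation, 0 several and 2021 none. The named ones were fitted with limma 3.58.1 in R 4.3.3 (lmFit and eBayes, no covariate, two-sided), with Benjamini-Hochberg adjustment over all 23185 and a threshold of 0.05. The procedure was tested on simulated data. Members and lists were chosen with earlier results of these data known. Named were Myc, all members, every pathway gene past the threshold, the 2 smallest p-values of a list with at most 1 call, and 3 genes closest to Ifng; other genes were named after their values were seen. Some listed genes were not analysed here and are not reported. Same-numbered arrays did not deviate together (correlations of deviations −0.070, −0.012 and −0.017), so no pairing was used. Results were recomputed with the replicate number as a block, trended or robust prior variances, weights per array, cyclic loess or median centring, dim genes filtered out, all probe sets, each array left out and other thresholds. Figures used matplotlib 3.10.9.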

Additional observations from a re-analysis of the deposited data

How the results depend on the processing

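None of the 8 members passed an adjusted p under 0.05 or changed sign in any of the fits run (13 to 15 for each, since filters on dim genes removed some); their lowest adjusted p in limma was 0.167, for Runx3, and at an unadjusted p under 0.05 the count was 2. The 105 genes called over all and the 3 pathway genes called became 0 and 0 with the replicate block, 370 and 10 with a prior variance that followed intensity, 549 and 9 for the brighter part of the genes from the median level up, 192 and 8 among genes above the lower quartile, 413 and 9 at an adjusted p under 0.1, 0 and 0 at an adjusted p under 0.01, and 3450 and 26 at an unadjusted p under 0.05. Median centring gave 5 pathway genes. Leaving out 1 array gave 0 to 2 genes over all and 0 to 0 pathway genes; fewer arrays were fitted there. The added pathway genes included Tnf, Gbp4 and Gbp5 (higher). Under the trend and the median level filter, Jak1, Il18rap, Stat6 and Tap1 (lower) were added as well. Jak1 and Stat6 were also called, as lower, among genes above the lower quartile. The causes of the other shifts were not tested. Replicate numbers did not pair the arrays; with the block, limma's adjusted p was 0.114 for Il21, 0.173 for Klrk1 and 0.138 for Gbp2, and 0.173 for Il5 and 0.114 for Il17a. Values below the receptor gene percentile, 4 members among them, are limited by signal over background.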
